A study of Arabidopsis thaliana with 12 samples.

Results

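The plastid genome of Arabidopsis thaliana carries, besides its photosynthesis genes, the genes for much of the machinery that reads and translates that genome and for a few further proteins. The values of 26 such genes were followed in shoots and roots of control plants and of plants labelled cs. A probe set was included if the platform annotation gives it 1 plastid locus and that locus is not a psa, psb, pet, atp, rbcL or ndh gene. Of the 69 plastid loci that a probe set names alone, 33 are psa, psb, pet, atp or rbcL genes, 10 are ndh genes and 26 are the genes described here. Another 7 plastid probe sets name a pair of loci and were not analysed. The 26 comprise 15 ribosomal protein genes, 7 of the large subunit (rpl) and 8 of the small subunit (rps), 4 RNA polymerase genes (rpo), and matK, clpP, accD, ccsA, cemA, ycf3 and ycf4. The names follow a RefSeq gene table that lists 84 plastid loci.

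Per its title, the series dealt with plants under a low and lasting dose of caesium-137 (a radioactive form of the metal), and total RNA was hybridised to 12 Affymetrix ATH1 arrays with 1 label. There were 3 arrays for each of 4 groups: control shoots, Cs shoots, control roots and Cs roots, with cs in the sample titles read as exposure to caesium because of the series title. Every sample carries developmental stage 1.0. Line, genotype, dose, length of exposure and growth conditions are not stated in the labels. No label says whether replicates came from separate plants, so the p-values measure the spread between arrays, which may be technical. The signals are MAS5 intensities scaled by the authors to a trimmed mean of 100 per array, and the array medians lay between 41.1 and 49.6. Arrays of 1 group correlated at 0.927 to 0.975, arrays of different tissues at 0.418 to 0.583, and 0 pairs of arrays held identical values. The summed signal of 6 nuclear photosynthesis genes was 23053 to 29046 in shoots and 353 to 2386 in roots, and the root markers PYK10 and EXPA7 summed to 3000 to 4076 in roots and 344 to 801 in shoots.

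Plastid genes are transcribed by a bacterial-type polymerase, whose core subunits the plastid encodes (rpoA, rpoB, rpoC1 and rpoC2) and whose sigma factors come from the nucleus, and by phage-type polymerases that are entirely nuclear products. The messages are translated on bacterial-type ribosomes that combine plastid-encoded and nuclear-encoded proteins. Shoots hold green chloroplasts, whereas roots hold mainly non-green plastids, which still make fatty acids, starch and amino acids.

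All 26 genes gave lower mean signals in roots than in shoots, and 25 of them passed the test in control plants. In control plants the median difference of the 26 was -2.52 on the log2(signal + 11) scale, with single genes from -4.10 for cemA to -0.59 for rps14. Limma, with Benjamini-Hochberg adjustment over all 15508 probe sets tested and a threshold of 0.05, called 25 of the 26 lower in control roots, beside 22.3% of all probe sets tested. In Cs plants 25 of the 26 were also called lower, beside 21.9% of all probe sets, with a median of -2.50 and a range from -4.01 for cemA to -0.48 for rps14. Of the 26 genes, rpoB, rpl36, rps14 and rps16 reached the filter on dim probe sets through their shoot signal alone, so a low root signal went with their being tested through shoots. The other 22 reached the filter in roots too, and 22 of 22 were called lower in control plants and in Cs plants. The 3 root arrays lay below the 3 shoot arrays for 25 of the 26 genes in control plants, beside 3735 of all 15508 probe sets tested. In Cs plants they did so for 26 of 26, beside 3772 of the 15508. The median over all tested probe sets was 0.24 in control plants and 0.22 in Cs plants. With each array centred on its own median it was 0.14 and 0.10, and the median of the 26 genes was then -2.62 in both. In whole organs, fewer cells of a type and less RNA per cell cannot be told apart. The labels do not say how the RNA was primed for labelling. Priming bears on how plastid transcripts, mostly without long poly(A) tails, are measured, and its part in these differences was not tested.

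**Figure D1:**
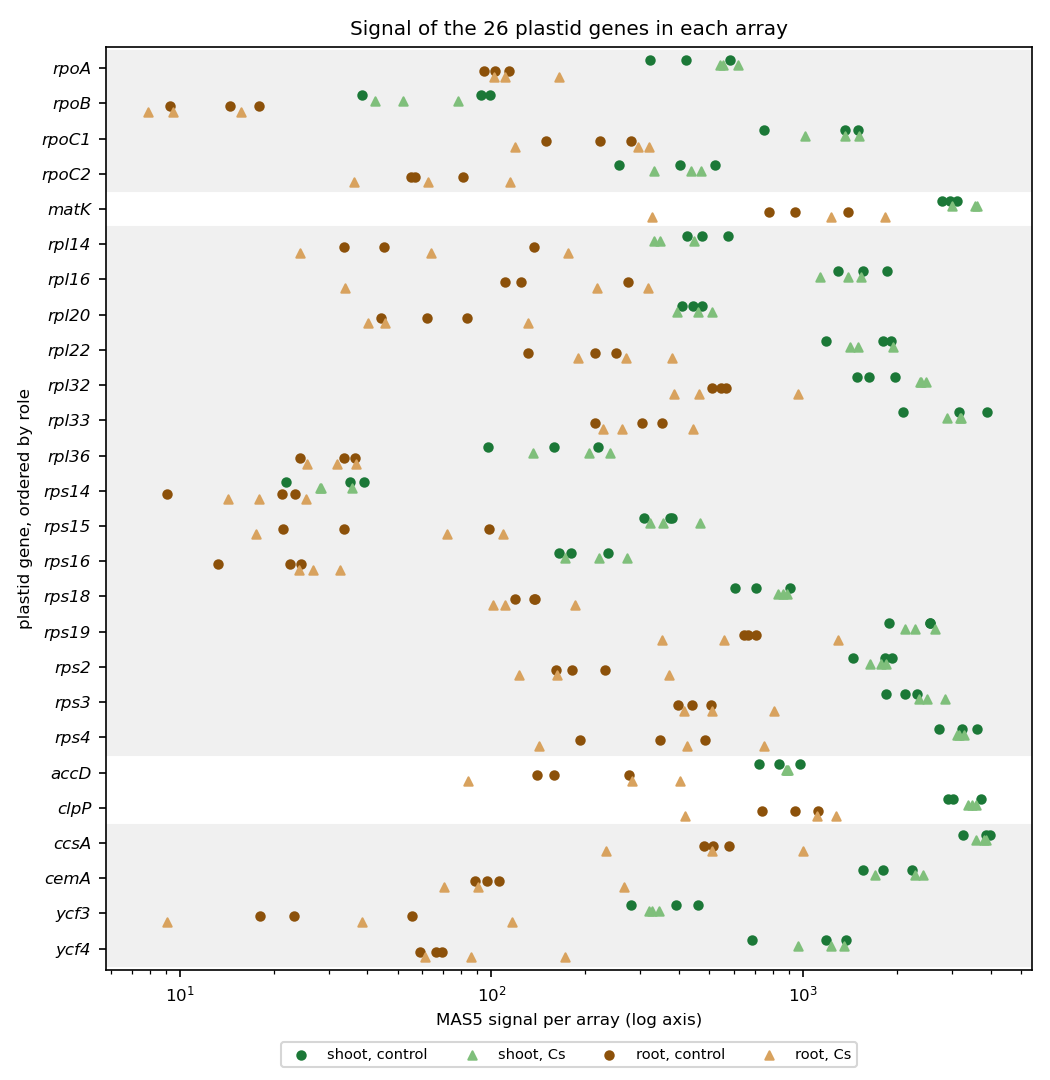
MAS5 signal (log axis) of each of the 26 plastid genes in each of the 12 arrays; circles are control arrays, triangles are Cs arrays, green is shoot and brown is root, with 3 arrays per group. The root arrays sit to the left of the shoot arrays for 25 of the 26 genes in control plants, beside 3735 of all 15508 probe sets tested. rps14 is the gene whose control root and shoot arrays overlap.

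The photosynthesis genes of the plastid genome were measured in the same arrays. Of all probe sets tested, 22.3% were called lower in roots of control plants and 21.9% in roots of Cs plants. The 33 psa, psb, pet, atp and rbcL genes had a median root-minus-shoot difference of -3.59 in control plants, with 33 of 33 called lower, and the 9 tested ndh genes, which encode subunits of an NADH dehydrogenase-like complex, a median of -4.15, with 9 of 9 called. In Cs plants the medians were -3.28 (32 of 33 called) and -3.59 (9 of 9 called). Of the 33 photosynthesis genes 7, and of the 9 ndh genes 5, were likewise tested through their shoot signal alone, and the 26 and 4 that reached the filter in roots were all called lower. Whether the 3 groups of genes differ was not tested, since genes of 1 plastid genome are not independent of each other. Expressed as root signal in percent of the mean over the 6 shoot arrays, the median of the 26 genes was 18.9%, 13.2% and 13.8% in the 3 control root arrays, and that of the 33 photosynthesis genes was 7.86%, 5.72% and 6.64%. In each of these arrays the 26 genes therefore kept a larger part of their shoot signal, at the median, than the photosynthesis genes.

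All 4 polymerase core genes were called lower in roots of control and of Cs plants, beside 22.3% and 21.9% of all probe sets tested. Of these genes rpoB was tested through its shoot signal alone, so its call is a description. rpoA, the gene of the alpha subunit, gave signals of 322, 422 and 583 in control shoots, 542, 555 and 620 in Cs shoots, 94.5, 114 and 103 in control roots and 102, 164 and 110 in Cs roots. Every root array was below every shoot array, and the control difference was -1.95 (SE 0.214, adjusted p = 6.16e-06). For rpoC1, which encodes the beta-prime subunit, the arrays read 750, 1368 and 1497 in control shoots, 1013, 1515 and 1363 in Cs shoots, 281, 150 and 222 in control roots and 295, 321 and 119 in Cs roots. The control shoot array numbered 1 was the lowest of the shoot arrays, and the control difference between organs was -2.39 (SE 0.364, adjusted p = 0.000107). rpoC2, of the beta-double-prime subunit, read 256, 523 and 403 in control shoots, 332, 471 and 436 in Cs shoots, 80.9, 56.9 and 55.3 in control roots and 62.7, 115 and 36.2 in Cs roots, a control difference of -2.38 (SE 0.328, adjusted p = 4.58e-05). The same control shoot array was again the lowest of its tissue.

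rpoB, of the beta subunit, had a dim probe set, with 38.4, 99.0 and 92.2 in control shoots, 51.9, 77.9 and 42.3 in Cs shoots, 18.0, 9.28 and 14.4 in control roots and 9.50, 7.89 and 15.7 in Cs roots. Its difference in control plants was -1.74 (SE 0.304, adjusted p = 0.000312), and the root signals lie below 31.2, the signal that the filter on dim probe sets asks for in roots. Such a fold change is understated by the added 11. Within control roots the polymerase genes stood at 16.3% (rpoC2), 18.1% (rpoC1), 18.2% (rpoB) and 23.4% (rpoA) of their own control shoot means.

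matK, which encodes a maturase for plastid introns, was among the genes with the smallest organ difference. It gave 2802, 2952 and 3112 in control shoots, 3002, 3564 and 3622 in Cs shoots, 1392, 777 and 945 in control roots and 1230, 1838 and 328 in Cs roots. The organs did not overlap, but the Cs root arrays ranged widely, from the lowest to the highest root value. The difference was -1.54 in control plants (SE 0.458, adjusted p = 0.0113) and -1.88 in Cs plants (adjusted p = 0.00353). After quantile normalization the adjusted p in control plants was 0.0513 and the call was lost.

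**Figure D2:**
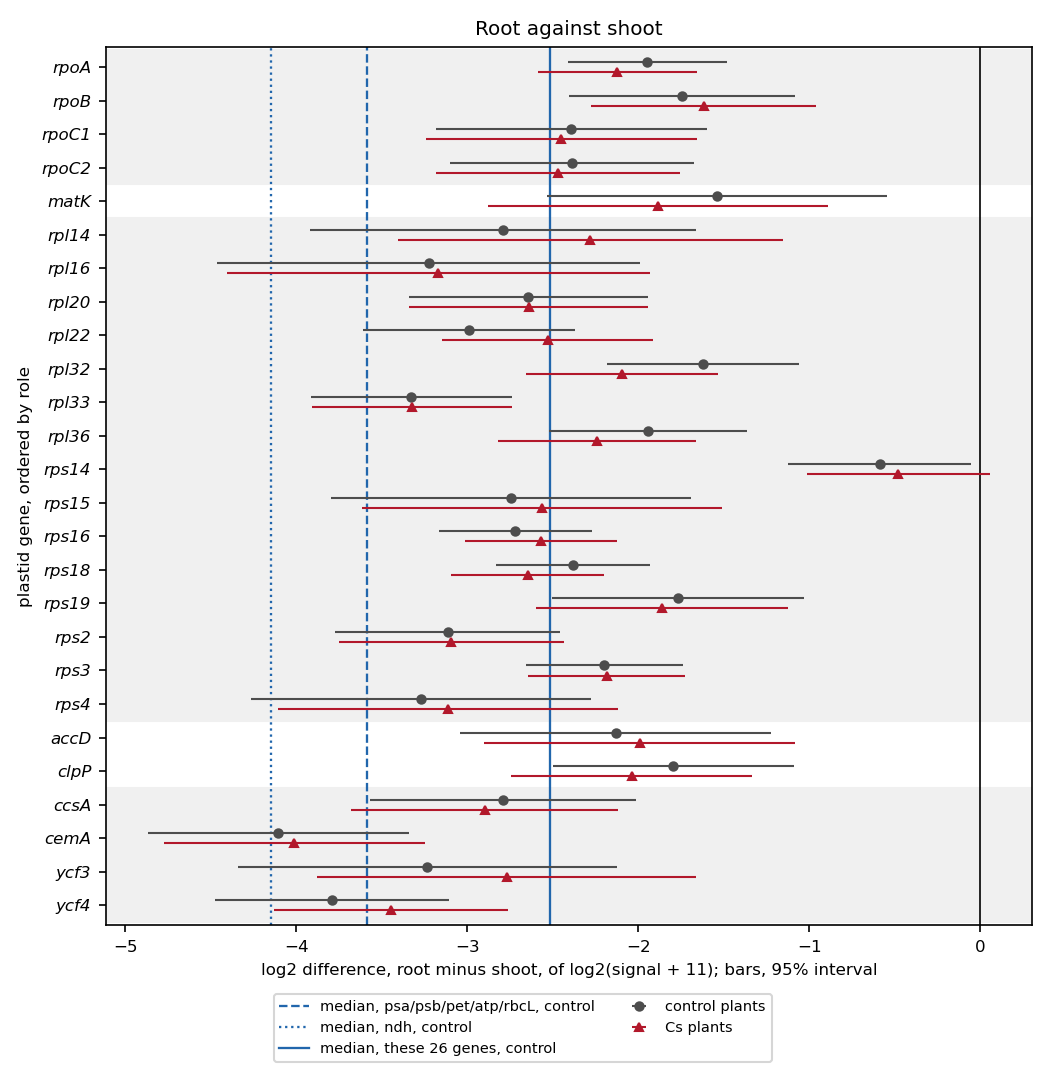
Root minus shoot log2 difference of each of the 26 genes in control plants (grey circles) and Cs plants (red triangles), with 95% intervals from the fit to 12 arrays. The solid, dashed and dotted lines mark the control medians of the 26 genes (-2.52), of the 33 photosynthesis genes (-3.59) and of the 9 ndh genes (-4.15), and the interval of rps14 in Cs plants alone crosses 0.

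Among the 15 ribosomal protein genes 14 were called lower in control roots, beside 22.3% of all probe sets tested, with a median of -2.72. The 15 include rpl36, rps14 and rps16, which were tested through their shoot signal alone. The 7 large-subunit genes had a median of -2.79 (7 of 7 called) and the 8 small-subunit genes of -2.55 (7 of 8 called). The strongest difference of the 15 was that of rpl33, with 2097, 3176 and 3883 in control shoots, 3183, 2902 and 3202 in Cs shoots, 305, 353 and 215 in control roots and 263, 444 and 229 in Cs roots. Its control root mean was 9.53% of the shoot mean, a difference of -3.33 (SE 0.270, adjusted p = 4.12e-07). rps4, whose protein takes part in early assembly of the small subunit in bacteria, read 2724, 3225 and 3623 in control shoots, 3128, 3284 and 3168 in Cs shoots, 483, 192 and 347 in control roots and 425, 750 and 142 in Cs roots. All its root arrays were well below its shoot arrays, at a control difference of -3.27 (SE 0.458, adjusted p = 5.26e-05).

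rps16 reached the filter on dim probe sets through its shoot signal alone, so its organ difference, which has the smallest p of the 26 in control plants, is a description. The arrays read 180, 165 and 236 in control shoots, 273, 172 and 221 in Cs shoots, 24.5, 22.6 and 13.3 in control roots and 26.7, 32.7 and 24.1 in Cs roots, and the difference was -2.72 (SE 0.206, adjusted p = 2.22e-07). The shoot signals exceeded the root signals in every array, and the spread within either organ was small beside that gap. In Cs plants the smallest p was that of rps18, another small-subunit gene, with 603, 705 and 909 in control shoots, 829, 863 and 885 in Cs shoots, 119, 137 and 138 in control roots and 101, 185 and 111 in Cs roots. Its organs were far apart in both exposures, at -2.38 in control plants (SE 0.206, adjusted p = 7.16e-07) and -2.65 in Cs plants (SE 0.206, adjusted p = 3.05e-07).

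Control differences between organs of the large-subunit genes not yet described were -3.22 for rpl16, -2.99 for rpl22, -2.79 for rpl14, -2.64 for rpl20, -1.94 for rpl36 and -1.62 for rpl32, each called. The call of rpl36 is a description, since it was tested through its shoot signal alone. Of the small-subunit genes, rps2 stood at -3.11, rps15 at -2.74, rps3 at -2.20 and rps19 at -1.77, also each called. These calls in control plants stand beside 22.3% of all probe sets tested. In Cs plants these 10 genes, rpl36 again as a description, were likewise all called, beside 21.9% of all probe sets tested. Their differences ran from -3.17 for rpl16 to -1.86 for rps19.

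rps14 was the exception of the set, and it was also dim. The signals were 21.9, 38.9 and 35.1 in control shoots, 28.3, 35.6 and 28.4 in Cs shoots, 9.10, 21.2 and 23.4 in control roots and 25.4, 18.0 and 14.3 in Cs roots. Control root replicate 3 lay above control shoot replicate 1, so these groups overlapped, whereas in Cs plants all 3 root arrays were below all 3 shoot arrays. The difference was -0.59 in control plants (SE 0.246, adjusted p = 0.0555) and -0.48 in Cs plants (SE 0.246, adjusted p = 0.114), so neither passed the test. Under 6 alternatives, among them quantile normalization, array-median centring and leaving out control shoot replicate 1 or control root replicate 3, the control difference of rps14 did pass, and under array-median centring the Cs difference passed too. With rps14 excepted, the control root means of the ribosomal protein genes ran from 9.53% (rpl33), 10.4% (rps16), 10.7% (rps4), 10.8% (rpl16) and 11.0% (rps2) of the shoot mean up to 28.8% (rps19) and 31.9% (rpl32). rps14 stood at 56.1%. 

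clpP, the plastid-encoded proteolytic subunit of the Clp protease, and accD, of a subunit of the acetyl-CoA carboxylase that starts fatty acid synthesis, have products that act outside photosynthesis. clpP gave 3037, 2928 and 3729 in control shoots, 3495, 3384 and 3590 in Cs shoots, 1115, 739 and 939 in control roots and 1112, 1277 and 417 in Cs roots. The organs did not overlap, and the difference in control plants was -1.79 (SE 0.324, adjusted p = 0.000411). For accD the arrays read 724, 839 and 981 in control shoots, 881, 887 and 895 in Cs shoots, 276, 140 and 159 in control roots and 282, 403 and 84.0 in Cs roots. The 3 Cs shoot arrays were nearly equal and the 3 Cs root arrays spread most, at a control difference between organs of -2.13 (SE 0.420, adjusted p = 0.000791). In control roots clpP stood at 28.8% and accD at 22.6% of their shoot means.

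The 4 remaining genes serve the photosynthetic membrane or the envelope. Their median organ difference in control plants was -3.51, with 4 of 4 called lower, beside 22.3% of all probe sets tested. cemA encodes an envelope membrane protein. Its probe set read 1553, 1803 and 2233 in control shoots, 1704, 2290 and 2418 in Cs shoots, 106, 96.7 and 88.7 in control roots and 90.7, 266 and 70.2 in Cs roots. Control roots were tightly grouped at 5.21% of the shoot mean, the lowest percentage of the 26 genes, and the difference was -4.10 (SE 0.351, adjusted p = 6.47e-07), or 17.2-fold on this scale. ycf4, an assembly factor of photosystem I, read 688, 1183 and 1378 in control shoots, 966, 1232 and 1353 in Cs shoots, 69.4, 59.0 and 66.4 in control roots and 85.9, 172 and 61.4 in Cs roots. Here too the control root arrays were close together, at 6.00% of the shoot mean, with a difference of -3.79 (SE 0.315, adjusted p = 5.02e-07).

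ycf3, a second photosystem I assembly factor, read 280, 461 and 391 in control shoots, 321, 346 and 327 in Cs shoots, 55.6, 18.1 and 23.3 in control roots and 38.4, 116 and 9.11 in Cs roots. Its root arrays spread over more than its shoot arrays on the log scale, and the control difference was -3.23 (SE 0.510, adjusted p = 0.00014). ccsA, needed to attach haem to c-type cytochromes of the thylakoid, read 3978, 3262 and 3856 in control shoots, 3805, 3581 and 3856 in Cs shoots, 578, 480 and 516 in control roots and 511, 998 and 232 in Cs roots. It had the highest root percentage of these 4 genes, 14.2% in control plants, with a difference of -2.79 (SE 0.359, adjusted p = 2.55e-05).

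Nuclear genes whose products work with these plastid gene products were examined as lists. Their counts of called genes stand beside 22.3% of all probe sets tested that were called lower in control roots. Of 39 nuclear genes for plastid ribosomal proteins 10 have a probe set of their own, and 10 of 10 were called lower in control roots, with a median of -3.57. The largest differences were -4.83 for AT1G64510 and -3.99 for AT2G43030, of the S6 and L3 ribosomal protein families. Of 14 nuclear Clp genes 5 were tested and 5 of 5 were called lower, with a median of -1.85, led by AT1G68660 (-2.50), an adaptor protein gene, and CLPP4 (-2.19), of a proteolytic subunit. In the list of 3 factors of plastid cytochrome c maturation, 2 were tested and both were called lower, CcdA at -2.62 and AT1G49380 at -2.33. Of 8 factors of plastid intron splicing 3 were tested and 3 of 3 were called lower, with AT5G16140 at -2.23 and CAF1 at -1.81, but 2 of the 3 were tested through their shoot signal alone. Of 21 polymerase partners 1 has a probe set of its own and 0 passed the filter on dim probe sets, and of 4 acetyl-CoA carboxylase genes 0 have one. In control plants the median of the 5 nuclear Clp genes was -1.85, with a range from -2.50 to -1.59. The 1 plastid Clp gene, clpP, stood at -1.79. The plastid ribosomal proteins had medians of -3.57 for nuclear and -2.72 for plastid genes. Neither pair of values was tested against each other.

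In shoots, exposure to caesium gave no called gene: 0 of 26, and 0% of the 15508 probe sets tested, passed the adjusted threshold, and at an unadjusted p under 0.05 limma found 0 of the 26 and 324 of all probe sets in the fit without pairing. Same-numbered shoot arrays deviated together over all probe sets tested. Over the 26 genes their deviations from the group means correlated at 0.48, 0.61 and 0.08 in pairs 1, 2 and 3. In shoot arrays alone with the replicate number as a block, 0 of the 26 and 3 of 13648 probe sets were called. At an unadjusted p under 0.05 limma then found 8 of the 26 and 894 of the 13648. The 26 differences of Cs minus control shoots had a median of 0.09, with 21 above 0, beside a median of 0.01 over all probe sets. They ran from -0.37 for rpl14 to 0.52 for rpl32. rpl32, a large-subunit protein gene, had the smallest p. It read 1968, 1485 and 1633 in control shoots and 2395, 2484 and 2377 in Cs shoots, and 544, 567 and 510 in control roots and 465, 963 and 386 in Cs roots. Its 3 Cs shoot arrays lay above its 3 control shoot arrays, while its root groups overlapped. The shoot difference was 0.52 (SE 0.258, 95% interval -0.04 to 1.08, adjusted p = 1).

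rps3, a small-subunit protein gene, was the other gene with separate shoot groups. It gave 1843, 2119 and 2324 in control shoots and 2351, 2857 and 2503 in Cs shoots, and 508, 441 and 396 in control roots and 510, 808 and 415 in Cs roots. The gap between the highest control shoot and the lowest Cs shoot was narrow, and the difference was 0.30 (SE 0.211, 95% interval -0.16 to 0.75, adjusted p = 1). All Cs shoot arrays lay above all control shoot arrays for these 2 of the 26 genes, beside 4.2% of all probe sets, and below them for 0 of the 26, beside 2.15%. rpoA had the second smallest p, with a shoot difference of 0.40 (SE 0.214, adjusted p = 1) and overlapping groups in the fit without pairing. In all 3 same-numbered shoot pairs the Cs array was above its control for 6 of the 26 genes (rpl32, rpoA, rps3, rpl36, cemA and matK), beside 15.7% of all probe sets, and below it for 2 (rpl14 and rpl16), beside 11.3%. With the block in shoot arrays alone, adjusted p was 0.143 for rpl32, 0.517 for rpoA and 0.544 for rps3.

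The sign of 10 of the 26 shoot differences changed when control shoot replicate 1 was left out, which also breaks a same-numbered pair. Control shoot replicate 1 was the lowest of the 6 shoot arrays for 19 of the 26 genes, beside 24.7% of all probe sets. Without it 11 of the 26 differences were above 0 and their median was -0.06. Both shoot arrays numbered 1 lay below the other shoot arrays for 13 of the 26 genes, beside 21.8% of all probe sets, and the 13 include rpoC1, rpoC2, ycf3, ycf4 and cemA. The same held for 13 of the 33 photosynthesis genes and 3 of the 9 ndh genes. Without both of those arrays, an alternative chosen after seeing the data, 13 differences were above 0 and the median was -0.00496. rpl32 was not among the 13: its control shoot replicate 1 was the highest of the 3 control arrays.

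**Figure D3:**
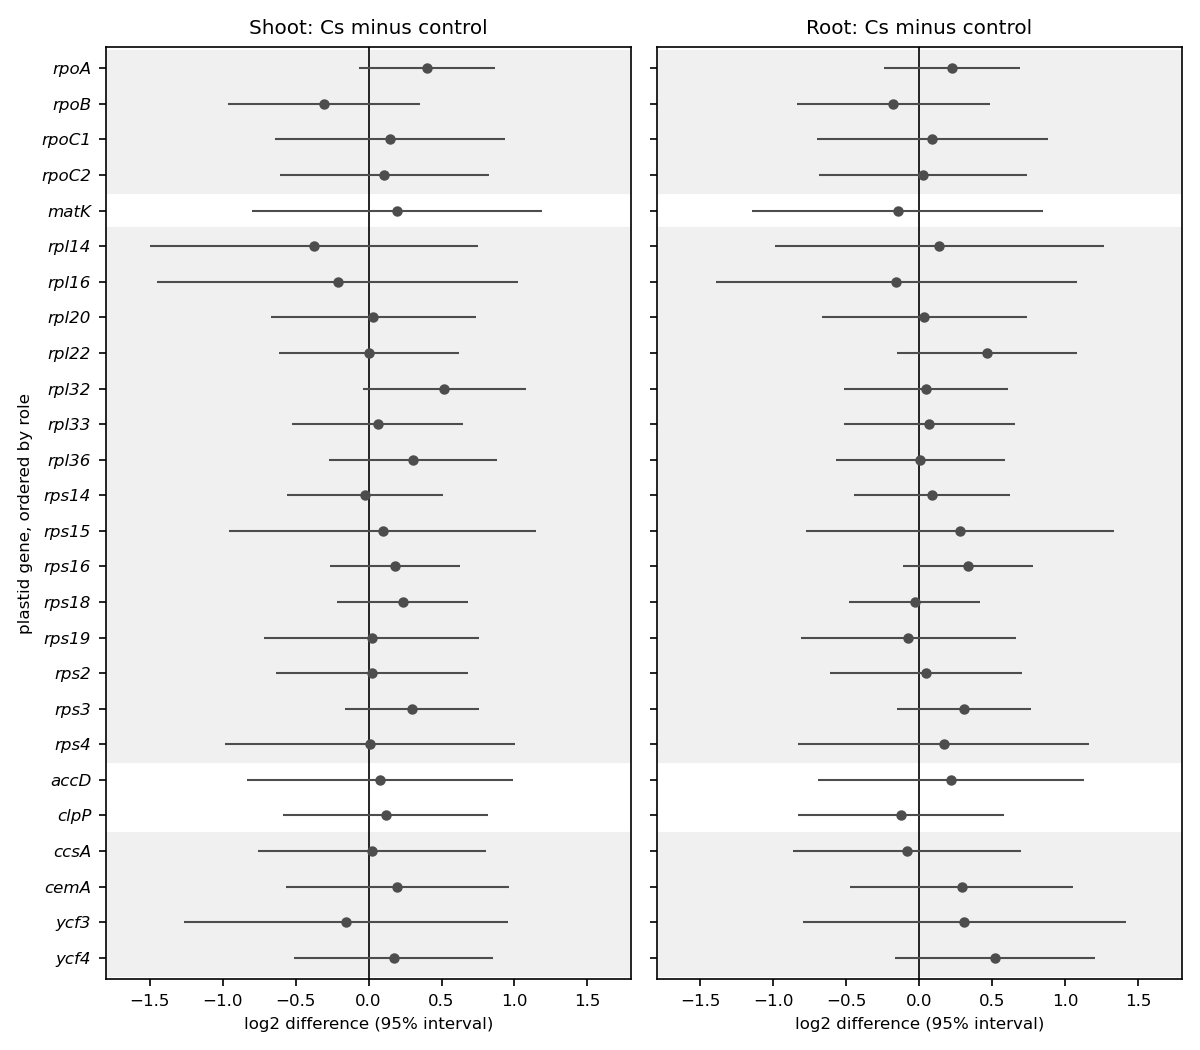
Cs minus control log2 difference of each of the 26 genes in shoots (left) and roots (right), with 95% intervals from the fit to 12 arrays. Every interval of this fit, which does not pair the shoot arrays, spans 0, with shoot values running from -0.37 (rpl14) to 0.52 (rpl32). In shoot arrays alone with the replicate number as a block, limma gave 8 of the 26 genes an unadjusted p under 0.05. Over all probe sets that count was 894 of 13648, and 0 of the 26 were called.

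In roots, again 0 of 26 genes and 0% of probe sets passed the adjusted threshold, and at an unadjusted p under 0.05 the counts were 0 of the 26 and 589 of all probe sets. The median difference was 0.08 with 19 of 26 above 0, beside a median of 0.00095 over all probe sets. The smallest p belonged to ycf4, at 0.52 (SE 0.315, 95% interval -0.16 to 1.20, adjusted p = 1), followed by rpl22, at 0.46 (SE 0.284, adjusted p = 1), and rps16, at 0.33 (SE 0.206, adjusted p = 1). For rpl22, a large-subunit protein gene, the arrays read 1183, 1918 and 1809 in control shoots, 1418, 1941 and 1501 in Cs shoots, 251, 215 and 131 in control roots and 270, 380 and 189 in Cs roots. Its root groups overlapped, as did those of all 26 genes: in 0 of 26 were the 3 Cs and 3 control root arrays separate, beside 8.89% of all probe sets.

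The root values depended on individual Cs arrays. Cs root replicate 2 was the highest of the 6 root arrays for 24 of the 26 genes, beside 16% of all probe sets, and its median deviation from the gene's root median was 0.84 on the log2 scale. The exceptions were rpoB, for which it was the lowest, and rps14. Cs root replicate 3 was the lowest for 16 of the 26, beside 20.6% of all probe sets, with a median deviation of -0.45. This array lay farthest below the root median for rpl16, with 34.0 against 110 to 318 in the other root arrays, and for matK, with 328 against 777 to 1838. Without Cs root replicate 2, 6 of the 26 differences of Cs minus control roots were above 0 and the median was -0.26. Without Cs root replicate 3 instead, 25 were above 0 and the median was 0.42, and 0 of the 26 were called in either case.

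**Figure D4:**
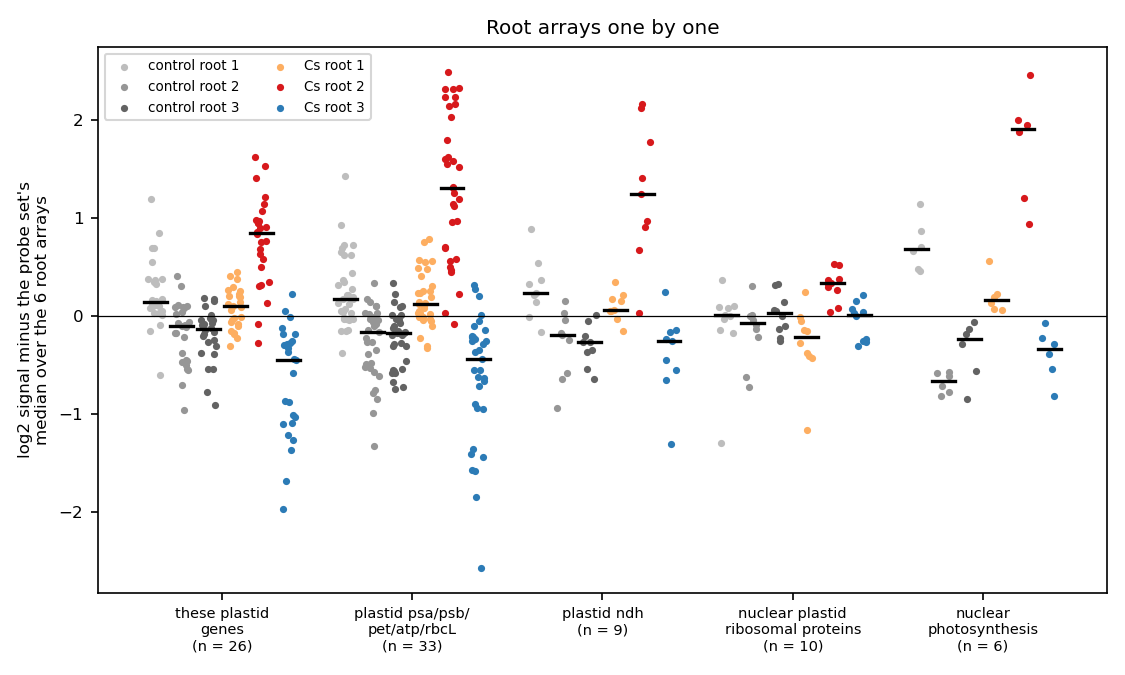
Deviation of each probe set's log2 signal from its median over the 6 root arrays, by array, for the 26 genes and 4 other sets; points are probe sets and bars are medians. The median of Cs root replicate 2 is above that of every other root array in all 5 sets, at 0.84 for the 26 genes, 1.31 for the plastid photosynthesis genes, 0.33 for the nuclear plastid ribosomal protein genes and 1.91 for the nuclear photosynthesis genes.

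Genes that mark green shoot tissue were also high in Cs root replicate 2. The 6 nuclear photosynthesis genes summed to 1089, 353 and 484 in control roots and to 723, 2386 and 437 in Cs roots, and 6 of 6 were highest in Cs root replicate 2, where their lowest single signal was 102. In Cs root replicate 3, 1 of the 6 was at its lowest root value, and 4 of the 6 were lowest in control root replicate 2. None of the 6 was at 0 in a root array. At the median they reached 9.83% of their mean over the 6 shoot arrays in that array and 1.36% to 3.55% in the other root arrays. The 26 genes reached 27.6% there, and 15.2% and 9.59% in Cs root replicates 1 and 3. The plastid photosynthesis genes were highest in Cs root replicate 2 for 30 of 33, the ndh genes for 8 of 9 and the nuclear plastid ribosomal protein genes for 8 of 10. The part of shoot tissue in the root values was not tested. Without Cs root replicates 2 and 3 together, an alternative chosen after seeing the data that leaves 1 Cs root array, assumed to vary like the other groups, the median of the 26 differences was 0.12 with 15 above 0.

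**Figure D5:**
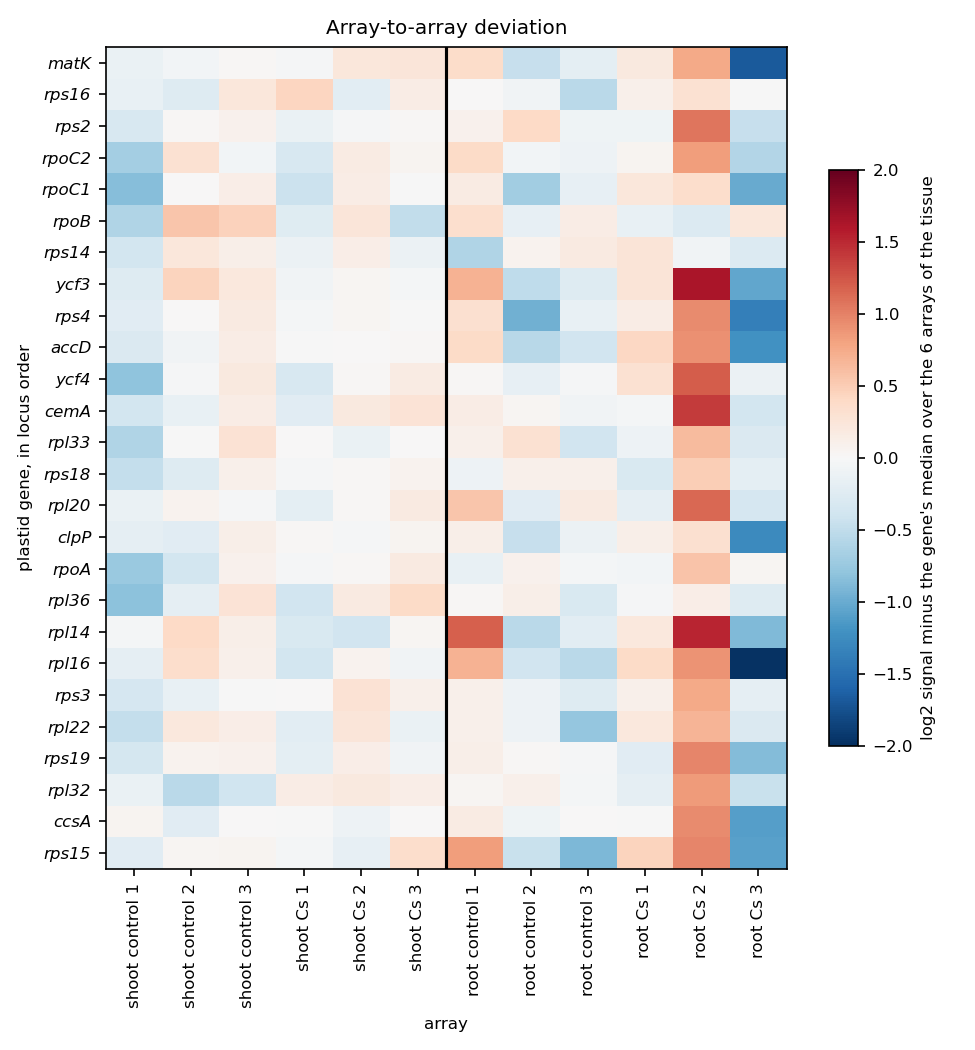
Deviation of each of the 26 genes, in the order of their loci, from its median over the 6 arrays of the same tissue, in each of the 12 arrays; red is above and blue is below the median, on the log2 scale. Cs root replicate 2 is the highest root array for 24 genes, Cs root replicate 3 the lowest for 16, and control shoot replicate 1 the lowest shoot array for 19.

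The effect of caesium was also compared between organs and averaged over them. These comparisons use the same 12 arrays as those above and are not independent of them. The difference of the effects, root minus shoot, had a median of 0.02 over the 26 genes, with 0 of 26 and 0% of all probe sets called and 0 of the 26 at an unadjusted p under 0.05 (341 of all probe sets). Its smallest p values were those of rpl32 (-0.47, SE 0.365), rpl22 (0.46, SE 0.402) and rps18 (-0.27, SE 0.292), each with an adjusted p of 1. The shoot difference of rpl32 is thus not shown to differ from its root difference of 0.05. Averaged over organs, the median was 0.08 with 20 of 26 above 0, 0 of 26 and 0% of all probe sets were called, and 0 of the 26 but 524 of all probe sets had an unadjusted p under 0.05. rpoA (0.31, SE 0.151), rps3 (0.30, SE 0.149) and rps16 (0.26, SE 0.146) had the smallest p values, each with an adjusted p of 1.

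The precision of the arrays sets what these comparisons can show. The 95% intervals of the 26 genes in a comparison of 2 groups had half-widths from 0.447 to 1.24 on the log2 scale, with a median of 0.702. In shoots the interval lay within a change of 1 on the log2 scale for 19 of the 26 genes, in roots for 16, and averaged over organs for 25. The fit shares the spread of a gene over the 4 groups and does not pair the shoot arrays. Its half-widths are therefore the same in both organs and do not measure the precision of either organ alone. The half-width was 1 or more for 4 of the 26 genes, rps15, rpl14, rpl16 and ycf3. In this fit an observed change of 1 would leave the interval of these genes reaching 0. The arrays of ycf3 spread more in roots than in shoots. The widest intervals were those of rpl16 and rpl14, large-subunit protein genes whose control root arrays read 275, 124 and 110 and 137, 33.6 and 45.2. Genes of the nuclear lists gave no call in any comparison of Cs with control.

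The genes lie in clusters along the plastid genome, many of which are transcribed together. Among the 26, 13 pairs are neighbours in the order of plastid loci. The deviations from the group means correlated over the 6 shoot arrays with a median Pearson r of 0.848 for these pairs and 0.617 for the other 312 pairs, and over the 6 root arrays with 0.855 and 0.750. These are descriptions over arrays that all the genes share, and a library that is high or low for most genes raises r for any pair. Among the 13 neighbour pairs, rpl22 and rps19 had the highest shoot value (0.99) and matK and rps16 the lowest (-0.35), while ycf4 and cemA had the highest root value (0.977) and rpoC1 and rpoB the lowest (-0.25). The other pairs ranged wider, from -0.95 to 0.996 in shoots and from -0.73 to 0.995 in roots, and the neighbours were not tested against them. Strand was not used, so a pair of neighbours need not share a transcript.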

How the data were processed

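Total RNA of Arabidopsis shoots and roots was measured on 12 ATH1 arrays in 4 groups of 3, grouped by the titles. The deposited values are intensities on a linear scale, made by the authors with MAS5, per the submitters' processing notes. The labels give neither a background correction nor detection calls. The table holds 22810 probe sets, of which 64 controls were left out.

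Signals were transformed as log2(signal + 11), which understates changes of dim probe sets. Of 22746 probe sets, 15508 whose mean log2 signal reached the 40th percentile in at least 1 tissue (28.0 in shoot, 31.2 in root) were tested with limma 3.58.1 in R 4.3.3 (lmFit, eBayes with intensity trend, 1 mean per group, 8 residual degrees of freedom, Benjamini-Hochberg, threshold 0.05). The scripts were tested on simulated data. In the annotation, 13513 probe sets name 1 gene, 503 several and 8730 are not listed, and 13436 were found in the TAIR10.1 RefSeq gene table. No coordinates are printed, since no label names a genome build.

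Every gene of the set is named, with full values for the 3 smallest p of each comparison; of each nuclear list, genes called in a Cs comparison and the 2 largest called organ differences are named. Values of further genes are given by role. The members, the lists and these rules were chosen with earlier results of these data known.

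Replicate numbers in the titles were checked for pairing. Same-numbered control and Cs arrays deviated together in every shoot pair (correlations 0.71, 0.41 and 0.45). In roots they did so in pairs 1 and 3 but not 2 (0.47, -0.02 and 0.40). Numbers were therefore taken to pair shoot arrays only. Differently numbered shoot arrays correlated at -0.58 to 0.37, the highest being control 3 with Cs 2, so the pairing of numbers 2 and 3 is less clear. Alternatives were quantile normalization, array-median centring, pseudocounts 4 times smaller and larger, other filters, no trend, a replicate block, fits to 1 tissue or exposure, and leaving out each array.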

Additional observations from a re-analysis of the deposited data

How the results depend on the processing

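The counts of called genes held under every alternative run: 0 of the 26 genes were called in any comparison of Cs with control, and 24 to 26 were called lower in roots in both organ comparisons (rps14 gained a call under 6 alternatives in control plants and under array-median centring in Cs plants, matK lost its call under quantile normalization in control plants, and the filter at the 60th percentile left 24 genes to test, all called). No called difference changed sign. With the replicate number as a block within tissue (4 residual degrees of freedom), the smallest adjusted p of the 26 in the Cs comparison was 0.923 in shoots and 0.352 in roots, and of all probe sets 0 were called in shoots and 6 in roots. In shoot arrays alone the numbers were taken to pair the arrays. With the replicate block there, limma gave rpl32 an adjusted p of 0.143 (SE 0.101) and 8 of the 26 an unadjusted p under 0.05. Of 13648 probe sets 3 were called, 0 of them among the 26. In root arrays alone with the block, 22 of the 26 were tested and 23 probe sets were called, 0 of them among the 22. Leaving out 1 shoot array at a time, the median Cs difference in shoots ran from -0.06 to 0.17. Leaving out 1 root array at a time, that in roots ran from -0.26 to 0.42, and without Cs root replicate 1, 10 probe sets outside the 26 were called there. Array-median centring left 16 shoot and 14 root differences above 0. Signals of rpoB and rps14 are dim, and 3 arrays a group limit the precision of every value.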

Other observations

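Among the nuclear Clp genes, AT4G25370, chosen after its values were seen, gave the smallest unadjusted p of its list in the comparison of Cs with control roots, at a log2 difference of 0.73 (SE 0.176). All 3 Cs root arrays were above all 3 control root arrays, as they were for 709 of all 15508 probe sets tested. The limma adjusted p was 1, so the gene was not called. In shoots its difference was -0.02. The plastid-encoded clpP had -0.12 in roots and 0.12 in shoots.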
